A study of Mus musculus with 4 samples.

Results

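Elements of the genes for major histocompatibility complex (MHC) proteins and antigen presentation were examined in a STARR-seq data set from mouse T helper 17 cells. An element was counted here when its centre lay within 100 kb of a coding transcription start site (TSS) and the nearest such site belonged to a gene whose symbol starts with H2- or to 1 of 20 named genes of the pathway. This rule used position alone and gave 64 of the 24217 elements on chromosomes in the authors' deposited table, 35 of them promoter-proximal (centre within 1 kb of the TSS) and 29 distal. The distance limit did not trim the set: the farthest member lay 23065 bp from its TSS, near H2-Oa (log2 fold change -1.27), and 0 elements beyond 100 kb had a gene of the rule as the nearest. Of the 54 genes that the rule covers, 36 had an element. Unless another start is named, the distance of an element is to the nearest coding start of its gene. In genes with several starts that point can differ between elements.

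The samples are 4 biological replicates of 1 group, and there is no second condition. They are activated Th17 primary cells of strain C57BL/6NJ, into which the reporter library was brought as an episome by transient transfection. The labels list antibodies to CD3e (0.25 µg/mL), CD28 (1 µg/mL), interleukin-4 (2 µg/mL) and interferon-gamma, together with interleukin-6, for 3 days, a starting quantity of 30 µg and a size range of 200 to 400. All replicates carry the same donor label, so the spread between animals cannot be judged. In STARR-seq, a genomic fragment lies in the transcribed part of a reporter, and its abundance in RNA over that in the input library is its activity. The authors combined the replicates into 1 value per element, so no value per replicate, standard deviation or depth is known here, and the precision of each value rests on the authors' q-value, the adjusted p-value of that element. Neither the labelled cell type nor the expression of any gene can be checked in these data. The direction of the fold change is not stated: it was taken as RNA over input, and a positive value is called higher and a negative one lower.

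MHC class I molecules, built from a heavy chain and beta-2-microglobulin, show peptides from the cytosol to CD8 T cells on nearly all cells. The peptides are cut by the proteasome, pumped into the endoplasmic reticulum by the TAP transporter and loaded with the help of tapasin and chaperones. MHC class II molecules show peptides from endosomes to CD4 T cells, mainly on professional antigen-presenting cells, and conventional mouse T cells largely lack them. Promoters of class I genes typically carry an NF-kB site, called enhancer A, next to an interferon-stimulated response element bound by interferon regulatory factors (IRF). Class I and class II promoters share a further module, with an X box bound by the RFX complex and by CREB-type factors and a Y box bound by NF-Y, on which the transactivators NLRC5 (class I) and CIITA (class II) assemble.

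The sequences at the class I starts show the first of these modules. The lines below are from GRCm38 (mm10), read in the direction of transcription. The capitals mark an NF-kB match, by its consensus, and the letters TTTCACTTC, which are the reverse complement of an IRF spacing variant, GAANNGAAA. Both were set 11 bases apart in a 30-base pair of matches that was chosen after the data were seen. The pair was searched with the narrower NF-kB letters common to these windows, not with the full consensus. H2-K2 and Gm20447 are annotated as pseudogenes and H2-Q5 as a polymorphic pseudogene, so the rule gives their elements to the nearest coding gene, which is H2-K1, H2-T3 and H2-Q4 respectively.
H2-K1, chr17:34000429-34000458, minus strand: GGGGATTCCCcatctccacagTTTCACTTC
H2-D1, chr17:35262923-35262952, plus strand: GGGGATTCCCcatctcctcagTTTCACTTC
H2-K2, chr17:33978953-33978982, minus strand: GGGGATTCCCcatctggtcagTTTCACTTC
H2-Q4, chr17:35379443-35379472, plus strand: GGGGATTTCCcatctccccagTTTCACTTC
H2-Q5, chr17:35393926-35393955, plus strand: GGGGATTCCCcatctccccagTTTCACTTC
H2-Q6, chr17:35424677-35424706, plus strand: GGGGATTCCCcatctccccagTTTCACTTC
Gm20447, chr17:36198678-36198707, minus strand: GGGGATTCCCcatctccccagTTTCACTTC

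The windows other than that of H2-K1 differ from it at 1 to 3 of 30 bases. Apart from H2-D1, all lie 82 to 200 bp upstream of the annotated start, and in H2-D1 the window begins 193 bp downstream of the start used here. Only 7 of the 24217 elements of the authors' deposited table held this pair in these narrower letters, and the 7 are the ones printed. Pairs of any consensus NF-kB match with the spacing variant, 11 bases apart, were not counted. Because the letters were taken from class I promoters, this count is no test of where such a pair occurs. All 7 were higher, beside 49.4% of all elements, from 0.73 at H2-Q4 to 5.10 at H2-Q6. A pair of related windows, found with the full NF-kB consensus, have other spacings, 10 bases in H2-Q7 (2.23) and 15 in H2-M3 (1.41).
H2-Q7, chr17:35439022-35439050, plus strand: GGGGATTCCCatctccccagTTTCACTTC
H2-M3, chr17:37270108-37270141, plus strand: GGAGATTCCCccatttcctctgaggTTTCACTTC

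A second group of promoters, among them those of genes that supply and load the peptides, held an IRF match without that pair. Those of H2-T23 (1.86), H2-M3 (1.41) and Rfx5 (0.92) belong to it too, but their IRF windows are not printed. The capitals in the next lines mark the match, which is a GAAA repeated after 2 bases, or its reverse complement.
Tap1, chr17:34187688-34187717, plus strand: cgaggtcggcTTTCGGTTTCttcttcctct
Tapbp, chr17:33919625-33919654, plus strand: gccttagaagGAAAATGAAAGTGAAAgggg
Tapbpl, chr6:125231721-125231750, minus strand: cagttgaagtGAAAGTGAAAGAGAAAcgat
Psmb8, chr17:34198335-34198364, plus strand: gtactgtggcTTTCGCTTTCacttccttgt
Psmb10, chr8:105938109-105938138, minus strand: gggtgggggtGAAAGCGAAAgtaggaagcg
Nlrc5, chr8:94434383-94434412, plus strand: cagtggccacTTTCAGTTTCcacagagcgc
H2-T24, chr17:36020908-36020937, minus strand: agtgctacagTTTCGGTTTCgacttcccag
H2-T22, chr17:36042914-36042943, minus strand: attggcttagTTTCACTTTCgaatccccaa
Psme1, chr14:55578493-55578522, plus strand: cgagctgtgcTTTCGCTTTCccttcccgct

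Of these 9, Psme1 alone was lower. The promoter of B2m, which encodes beta-2-microglobulin, carries the known modules side by side, and is shown from 148 to 43 bp upstream of the TSS (chr2:122147538-122147643, plus strand). Its capitals mark, in order, the IRF match, the NF-kB match, a CRE core TGACG and the inverted CCAAT of a Y box.
B2m: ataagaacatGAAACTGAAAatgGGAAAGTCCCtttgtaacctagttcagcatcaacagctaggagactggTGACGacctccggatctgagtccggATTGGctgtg

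With the fold change taken as RNA over input, 46 of the 64 elements were higher (71.9%, exact binomial 95% interval 59.2% to 82.4%, counting error only), with a median log2 fold change of 1.10. In the authors' deposited table, 49.4% of all elements on chromosomes were higher, with a median of -0.59, and the table itself holds 21.1% of the 114722 tests that its p-values and q-values imply. With the direction turned, the shares would be 28.1% of members and 50.6% of all elements, and highest and lowest would change places throughout. The gap was wider at promoters than at distal sites. Of the 35 promoter-proximal members 23 were higher (65.7%, 47.8% to 80.9%, median 1.06), whereas 13.3% of all 9508 promoter-proximal elements were higher (median -1.22). Of the 29 distal members 23 were higher (79.3%, 60.3% to 92.0%, median 1.12), close to the 72.7% of all 14709 distal elements (median 1.16). The members are not replicates, several share a promoter or a gene, and no test was made over the set.

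Base composition moves with direction across the whole table, so it was set beside these shares. The promoter-proximal members had a median GC content of 56.9%, against 64.7% for all promoter-proximal elements. Among elements outside the set, weighted to the same class and GC decile as the members, 31.7% would be higher at promoters and 60.0% at distal sites. The members' shares were thus 65.7% beside 31.7% and 79.3% beside 60.0%. What part GC has in the remaining difference was not tested.

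**Figure D1:**
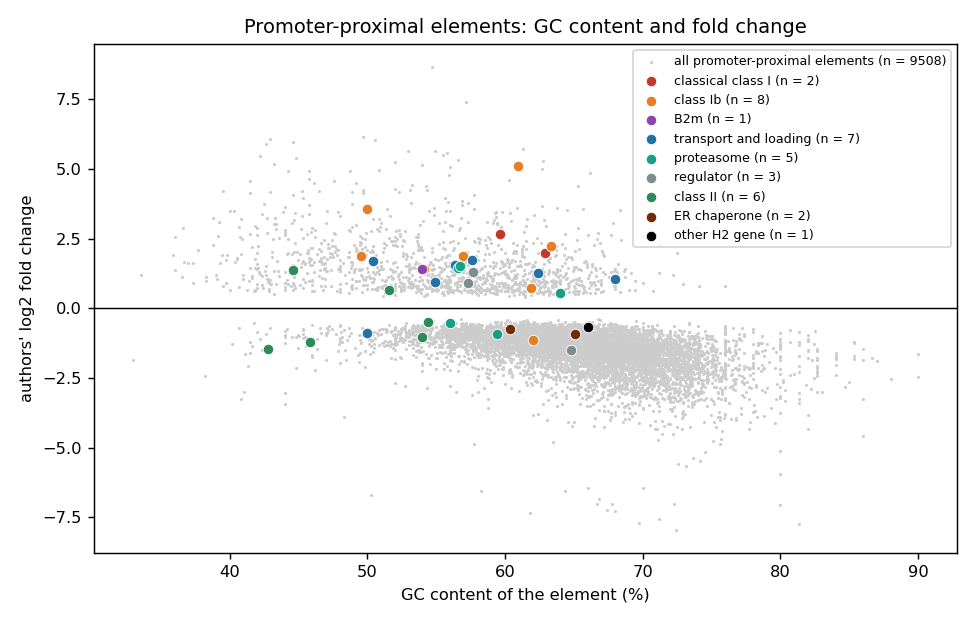
Each point is a promoter-proximal element, with its GC content in percent on the x axis and the authors' log2 fold change on the y axis; grey points are all 9508 elements and coloured points the 35 members by role. Most grey points above 60% GC lie below 0, whereas members of the class I, B2m and transport and loading groups lie mostly above 0.

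Classical class I genes, H2-K1 and H2-D1, encode the heavy chains that present peptide to CD8 T cells. In the authors' deposited table the H2-K1 promoter element (chromosome 17, 34000001 to 34000750, centred 28 bp upstream of the TSS) had a log2 fold change of 1.99 (q = 4.78e-13). The H2-D1 element (35262626 to 35263200, centred on an untranslated region) had 2.66 (q = 8.14e-16), the smallest p of the set. Both hold the pair of matches printed above, and both were above 1.28, the median of all higher promoter-proximal elements.

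Away from these starts, the elements of the classical genes went both ways. An element at the start of the pseudogene H2-K2 was higher (2.37, q = 7.92e-10). It lay 18572 bp downstream of another H2-K1 start (33997485) than that of the promoter element (34000347). An element 5497 bp downstream of the same start, 33997485, was the lowest member of all (-1.56, q = 0.00153). Near H2-D1, an element 4455 bp upstream was slightly higher (0.51, 50 bp long) and one 8067 bp upstream was lower (-1.08). The lowest element contains a match to the consensus of CTCF, a factor that binds insulators and loop anchors, and a stretch of it is printed with that match in capitals (GRCm38, chr17:33991939-33992038, minus strand).
H2-K1, 5497 bp downstream: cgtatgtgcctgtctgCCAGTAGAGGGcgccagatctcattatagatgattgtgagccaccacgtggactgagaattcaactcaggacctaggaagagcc

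Of the 4 distal members with a CTCF match 1 was higher, and over all distal elements with a match 29.4% were higher.

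Class Ib genes, the non-classical heavy chains of the H2-Q, H2-T and H2-M families, had 18 of 19 elements higher (94.7%, median 1.86), beside 49.4% of all elements. At promoters 7 of 8 were higher, beside 13.3%. For class I and Ib promoters together 9 of 10 were higher, where elements of the same class and GC decile outside the set gave 26.3%. The H2-Q6 promoter element (35424301 to 35425175, centred 112 bp upstream) had the highest value of the set, 5.10 (q = 9.78e-12), and ranked 20 among all 9508 promoter-proximal elements. The element at the start of H2-Q5, 14483 bp downstream of the H2-Q4 TSS, followed with 3.96 (q = 2.33e-08), and the H2-T24 promoter element with 3.55 (q = 3.78e-05). The H2-Q7 promoter element reached 2.23 (q = 8.46e-11). H2-Q7, like H2-Q6, belongs to the genes of the Qa-2 antigen.

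The remaining class Ib promoters were higher by less. H2-T22, whose product is a ligand of some gamma-delta T cell receptors, had 1.87 (q = 3.56e-11). H2-T23, which encodes Qa-1, the ligand of the inhibitory NKG2A receptor, had 1.86 (q = 4.38e-08). H2-M3, which presents N-formylated peptides of bacteria, had 1.41 (q = 2.78e-08), and H2-Q4 had 0.73 (q = 6.09e-05). The exception was H2-Q10, which encodes a class I protein secreted by the liver: its element of 50 bp, centred 14 bp upstream, was lower (-1.15, q = 0.00192).

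All 11 distal class Ib elements were higher, where 72.7% of all distal elements were. H2-T24 had 3 of them, at 3228 bp upstream (2.87) and at 18562 and 19175 bp downstream (0.90 and 1.17). H2-T3, the gene of the thymus leukaemia antigen, had no promoter-proximal element but 2 elements at the starts of the pseudogenes Gm20447 (1.12) and Gm8835 (1.03). H2-Q6 had one 4237 bp upstream (2.65), H2-Q4 one 10321 bp downstream (2.60), H2-Q1 one 18659 bp upstream (2.44), H2-Q7 one 1442 bp upstream (1.18) and H2-Q2 one 6251 bp downstream (1.02). In the whole set, 5 distal elements lay within 1 kb of the start of a pseudogene and all 5 were higher, as were 18 of the 24 other distal elements.

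Class I genes arose by duplication, and reads can fit more than 1 place. Near-identical copies, at 95% identity or more over at least 90% of the element, were found for 7 members, and all 7 were higher. The H2-Q6, H2-Q5 and H2-Q7 start elements have 2 copies each, the distal H2-Q6 element 4, the distal H2-Q7 element 2 and a pair of H2-DMb1 elements 1 each. The value of any 1 of these loci is therefore uncertain. The H2-K1, H2-D1, H2-Q4, H2-T22, H2-T23, H2-T24 and H2-M3 promoter elements had no such copy, and their values ran from 0.73 to 3.55. Copies of only a part of an element were not counted, so reads from these loci can still fit elsewhere. The sources used here do not say how the authors placed reads with several matches. The elements of H2-Q10 and Psmb9, of 50 bp each, could not be checked for copies.

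**Figure D2:**
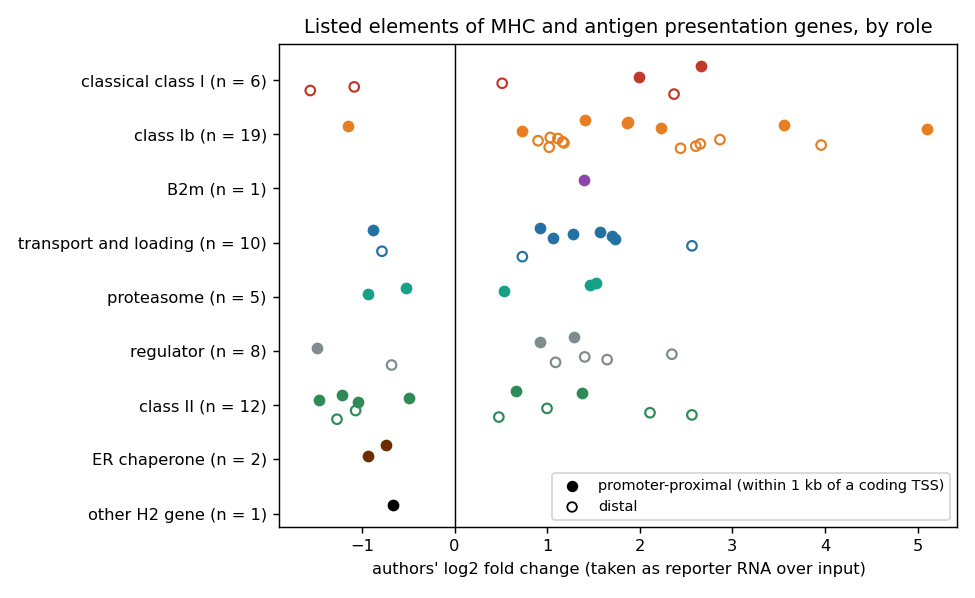
The x axis is the authors' log2 fold change of each of the 64 elements, and the rows are roles in antigen presentation with their number of elements; filled points are promoter-proximal and open points distal, with the vertical offset only to separate points. Class Ib has 18 of 19 points above 0, class II has 6 of 12, and the ER chaperones have 0 of 2.

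The genes that complete the class I molecule and feed it with peptide were mostly higher. Of 13 promoter-proximal elements of B2m and of the transport, loading and proteasome genes 10 were higher (76.9%, median 1.28), where elements of the same class and GC decile outside the set gave 29.7%. The B2m element (chromosome 2, 122147426 to 122147975, over the TSS) had 1.39 (q = 9.06e-09). Tap2, a subunit of the peptide transporter, had 1.57 at its promoter (q = 5.31e-10), and Tap1, the other subunit, had 1.28 (q = 6.57e-06). Tapbp, which encodes tapasin, had 1.73 at its start (q = 6.66e-11), 1.06 in an element of 50 bp beside it and 1.70 in its first kilobase (q = 1.87e-11). Another Tapbp element, 4485 bp downstream in an intron, was also higher (0.73). Tapbpl, the gene of the tapasin relative that edits peptides, had 0.93 (q = 8.41e-05).

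Tap2 was the loading gene with values on both sides. An element 13850 bp downstream reached 2.56 (q = 5.10e-04), whereas elements in introns 950 and 5713 bp downstream were lower (-0.88 and -0.78). These distances are from a start at 34205100, while that of the promoter element is at 34203527. No element was listed for Erap1, the aminopeptidase that trims peptides in the endoplasmic reticulum.

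The proteasome genes split. Psmb8 (1.46, q = 0.00222) and Psmb10 (1.52, q = 1.80e-04), which encode immunoproteasome catalytic subunits, were higher. Psmb9, the gene of another catalytic subunit, shares its promoter with Tap1 in divergent orientation. Its element of 50 bp, centred 94 bp downstream of the Psmb9 start, was lower (-0.52, q = 0.00641). It lies beside the 750 bp element assigned to Tap1, which was higher and covers the Psmb9 start (34187219). Psmb9 is thus counted as lower by the 50 bp element alone. Psme1 and Psme2 encode the subunits of the PA28 activator. The Psme1 element, centred at the TSS, was lower (-0.94, q = 0.00174), and the Psme2 element of 50 bp was higher (0.54, q = 0.00563), with the start of Rnf31 also within 1 kb.

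The chaperones that fold the heavy chain, which serve many other glycoproteins, gave lower promoter elements: Calr (calreticulin) had -0.74 (q = 4.19e-04) and Canx (calnexin) -0.93 (q = 8.82e-06). Pdia3, which encodes the disulfide isomerase ERp57 of the loading complex, had no listed element. A further gene whose symbol meets the rule, H2-Ke6, encodes a steroid dehydrogenase and no MHC molecule, and its promoter element was lower (-0.66, q = 0.00248).

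Class II genes did not share the direction of class I. Of their 12 elements 6 were higher (median -0.01), beside 49.4% of all elements. At promoters 2 of 6 were higher (33.3%, median -0.77), beside 13.3% of all promoter-proximal elements. Elements of the same class and GC decile outside the set gave 62.6%. Of the genes with a class II element, Cd74 and H2-Eb1 had a higher promoter-proximal one. A further higher element (0.86, q = 3.67e-06, 34119051 to 34119975) is centred 28 bp upstream of an H2-DMa transcript that is not among the coding ones used, so the rule gave it to Brd2, 1024 bp away, and it is in no count of members. Cd74, which encodes the invariant chain, had 0.66 (q = 0.00394). The H2-Eb1 element (chromosome 17, 34306126 to 34306625, q = 1.81e-08), at 1.37, lies in an intron 358 bp downstream of the start.

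The lower class II promoters included those of both subunits of H2-O, a protein that restrains the peptide exchange factor H2-M. H2-Ob had -1.46 (q = 0.00300) and H2-Oa had -1.04 (q = 0.00746). The H2-Ab1 element, at the gene of a classical class II beta chain, had -0.49 (q = 0.00927), and an element 904 bp upstream of H2-Eb1 had -1.21 (q = 0.00260). Letters of the class II module were found on both sides, but not in the same arrangement. AGCAAC and CCAAT occur together in the lower elements of H2-Ob, H2-Oa and H2-Eb1, on opposite strands. In the higher element of Cd74 they lie on the same strand, AGCAAC 33 bp downstream and CCAAT 204 bp upstream of the start. In H2-Ob, AGCAAC begins 86 bp and the inverted CCAAT 55 bp upstream of the start, and in H2-Oa 120 and 86 bp upstream. Windows of H2-Ob and H2-Eb1 are shown to set the order of these letters side by side. The capitals mark the X box letters AGCAAC, the CRE core TGACG in H2-Eb1, and CCAAT, on either strand.
H2-Ob, chr17:34238813-34238856, plus strand: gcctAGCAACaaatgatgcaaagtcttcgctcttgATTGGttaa
H2-Eb1, chr17:34304926-34304985, plus strand: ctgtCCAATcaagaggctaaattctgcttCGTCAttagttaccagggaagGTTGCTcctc

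Distal class II elements were higher in 4 of 6 cases, near the 72.7% of all distal elements. H2-DMb1, a subunit of H2-M, had elements 2772 bp upstream (2.56, q = 2.59e-09) and 5966 bp downstream (2.11, q = 1.06e-05), both in introns, and a lower one 11516 bp downstream (-1.07). H2-DMa, its partner, had a weakly higher element just beyond 1 kb, at 1040 bp upstream (0.48, q = 0.00784). H2-Eb1 had one of 75 bp, 4554 bp upstream (1.00), and H2-Oa the lower one named at the opening. No element was listed for H2-Aa, H2-Eb2 and H2-DMb2.

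Among the regulators, Nlrc5, the class I transactivator, had 6 elements, of which 5 were higher. Its promoter element (chromosome 8, 94433551 to 94434525, centred 353 bp upstream) had 1.29 (q = 1.97e-06). The largest and best supported (94493226 to 94493775) had 2.35 (q = 4.74e-15). It lay in an intron, 20737 bp downstream of an internal start at 94472763. Further intronic elements had 1.65 and 1.41, at 11050 and 12637 bp downstream of that internal start. Another had 1.09, at 15722 bp upstream of a start at 94470010. An intergenic element 20628 bp upstream of the start used for the promoter element (94434391) was lower (-0.68). By distance to the 5′ end of whole genes, the 3 elements downstream lie nearest to Cpne2. All 4 Tapbp elements likewise lie nearest to the 5′ end of Zbtb22 or Rgl2. The assignment of both groups depends on the internal starts that the annotation gives Nlrc5 and Tapbp.

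Of the RFX subunit genes, Rfx5 had a higher promoter element (0.92, q = 3.14e-07) and Rfxap a lower one (-1.48, q = 8.64e-06), the second lowest member. A window of the latter (GRCm38, chr3:54807706-54807735, minus strand) is shown with the CRE core in capitals.
Rfxap: acggttgtgtttctcaagagcTGACGggcc
Rfxank and Ciita, the class II transactivator gene, had no listed element. The other genes of the rule without one were 11 class Ib genes of the H2-M family: H2-M1, H2-M2, H2-M5, H2-M9, H2-M10.1, H2-M10.2, H2-M10.3, H2-M10.4, H2-M10.5, H2-M10.6 and H2-M11. The table holds only elements past the authors' threshold, so a fragment without change and a fragment without coverage cannot be told apart.

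Counted by gene, 20 of the 36 genes had higher elements alone, 10 had lower ones alone and 6 had both. The strongest element, the one with the smallest p, was higher in 26 genes and lower in 10. Of the 31 genes with a promoter-proximal element, 21 had a higher one. The share was close on and off chromosome 17, which holds the MHC: 35 of 48 members there were higher (72.9%), and 11 of the 16 elsewhere (68.8%), with 7 of 11 at promoters elsewhere.

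Sequence matches were counted on both strands in every element. At promoters, an IRF match was found in 14 of the 35 members (40.0%) and in 6.34% of all promoter-proximal elements. An NF-kB match was found in 13 members (37.1%) and in 16.8% of all. The median length was 725 bp for promoter-proximal members and 800 bp for all, and the median GC content was 56.9% and 64.7%. The shares with a match were not weighted by length or GC, and the part of either was not tested. GAS, TTCNNNGAA, the site of STAT factors, was found in 28.6% of members against 12.6%, and CCAAT in 68.6% against 50.5%. By contrast, the X box letters AGCAAC (28.6% against 26.8%), the CRE core TGACG (51.4% against 50.0%) and AP-1, TGANTCA (11.4% against 12.5%), were about as frequent in members as in all. The ETS letters CCGGAAG were found in 11.4% of members and in 23.4% of all.

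**Figure D3:**
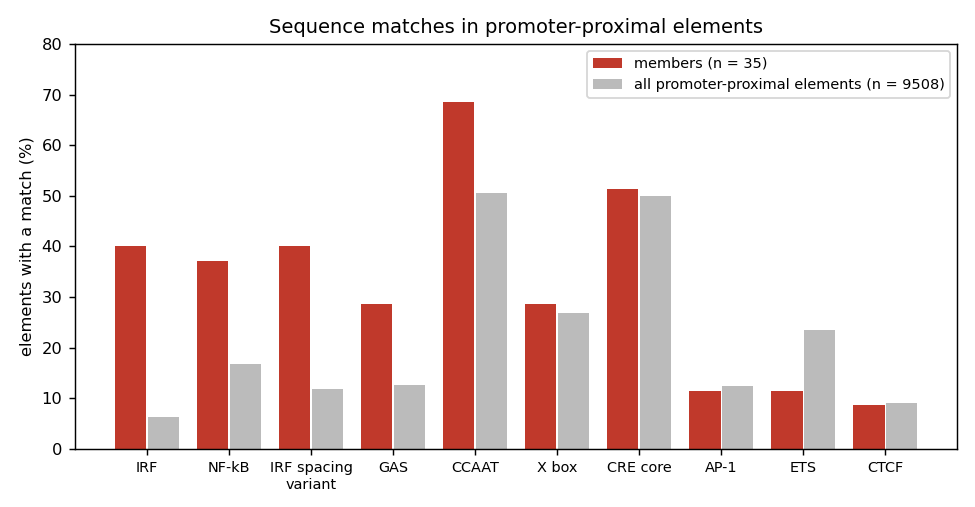
Bars give the percentage of promoter-proximal elements with at least 1 match on either strand (y axis, from 0) for each consensus (x axis), in red for the 35 members and in grey for all 9508. The widest gaps are for IRF (40.0% against 6.34%) and for the IRF spacing variant (40.0% against 11.9%). The spacing variant and the CRE core were added after the data were seen, so their bars are no test.

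Members with these matches were nearly all higher. Of the 14 with an IRF match 13 were higher, the exception being Psme1, and of the 21 without it 10 were. Of the 13 with an NF-kB match all 13 were higher, and of the 22 without it 10 were. Either match was present in 20 members, of which 19 were higher, and 4 of the 15 with neither were higher. The shares higher among all promoter-proximal elements with either match and with neither were 20.5% and 11.2%. Over all promoter-proximal elements, 39.8% of those with an IRF match were higher and 11.5% of those without, whereas with and without an NF-kB match the shares were 14.6% and 13.0%. The NF-kB match alone thus went with little difference in the whole table. The X box letters did not separate the members, with 6 of 10 higher.

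**Figure D4:**
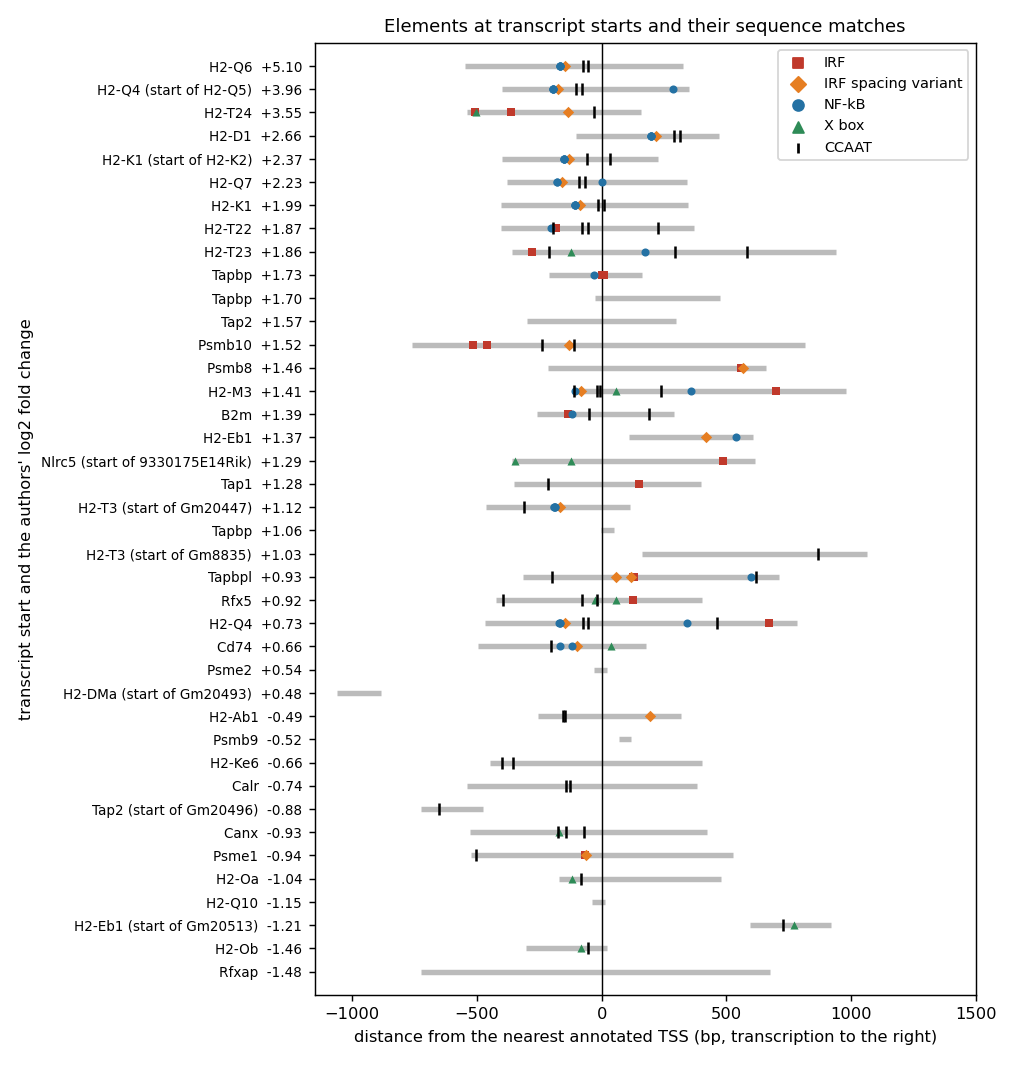
Each grey bar is a member within 1 kb of an annotated start of any gene, drawn by its distance in bp from that start (x axis). Transcription runs to the right, with exceptions that include H2-Eb1 (start of Gm20513) and Tap2 (start of Gm20496). There the nearest start is that of an antisense gene, and the side and order drawn do not hold. Rows are sorted by the authors' log2 fold change, which stands beside the gene name. The name in brackets is the gene whose start is nearest where it differs. Symbols mark sequence matches: IRF and NF-kB symbols crowd the upper rows, and X box and CCAAT symbols occur from top to bottom.

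Distal members differed less from the rest. An AP-1 match was found in 9 of 29 distal members (31.0%), fewer than the 45.1% of all distal elements, and 7 of the 9 were higher, where 87.3% of all distal elements with the match were. An NF-kB match was found in 10 (34.5%, against 12.8% of all) and 9 of these were higher, 3 of them at the pseudogene starts printed above. An IRF match was found in 3 (10.3%, against 13.1%), all higher, near Tap2, H2-T24 and Nlrc5. A match is a description of letters, and binding was not measured.

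Other genes of antigen processing, a list of 23 that includes cathepsins, the constitutive proteasome subunits and CD1 genes, gave shares near those of the whole table. For 15 of them elements were listed, and 12 of 26 were higher (46.2%, against 49.4% of all elements). At distal sites 10 of 13 were higher (76.9%, median 1.27), against 72.7%. At promoters 2 of 13 were higher (15.4%), near the 13.3% of all promoter-proximal elements. The higher promoter elements were those of Lnpep, an aminopeptidase of endosomes (0.53), and of Sppl2a in 1 of its elements (2.35), the gene of a protease that degrades the invariant chain. Psmb6, whose product the immunoproteasome subunit of Psmb9 replaces, had -0.83, and the cathepsin genes Ctsl, Ctsb and Ctsd had -1.28, -0.89 and -0.84.

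Genes of interferon signalling and of the factors that bind class I and II promoters, a list of 22, all had elements, and 47 of 70 were higher (67.1%, against 49.4% of all elements). At promoters 7 of 19 were higher (36.8%, against 13.3%). In the authors' deposited table these were the transcription factor genes Irf9 (3.49, q = 3.71e-05), Stat2 (2.88, q = 0.00248), Irf2 (2.00, q = 9.84e-06), Irf1 (1.10, q = 3.72e-06), Creb1 (0.83), Nfkb1 (0.80) and Nfyc (0.58). Factor and coactivator genes were among the 12 lower ones too, with Ep300 (-2.61), Nfyb (-2.52), Nfya (-1.22), Crebbp (-1.11) and Rela (-0.96). Promoter elements of the receptor and kinase genes Ifngr1 (-1.19), Ifngr2 (-1.30), Ifnar1 (-1.46), Ifnar2 (-0.86), Jak1 (-1.31) and Jak2 (-3.00) were lower, as was that of the feedback inhibitor Socs1 (-1.55). Distal elements of this list were higher in 40 of 51 cases (78.4%), near the 72.7% of all distal elements, with 3.43 for an element 98361 bp from Irf8.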

How the data were processed

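STARR-seq was measured in 4 replicates of 1 group. Per the file headers, the authors derived 1 table from all replicates; the deposited values are a log2 fold change, a p-value and a q-value per element on mm10. For aligner and caller, names were not given in the sources used here. All q-values equal a Benjamini-Hochberg adjustment over 114722 tests and are under 0.01. No counts are in use, so depth is unknown.

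Elements were annotated with GENCODE M21 and the GRCm38 genome (Python 3.11.15, pandas 2.3.3); 15 on contigs were left out. Intervals are exact binomial. Copies came from minimap2 2.31 (k 19, w 10). Of 11 motifs, 2 (the IRF spacing variant and the CRE core) and the 30-base pair were added after the data were seen. Sequences are those of the reference. Nearest starts and motif counts were checked by brute force and on simulated data.

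The members and lists were chosen with earlier results of these data known. For each gene, the element with the smallest p was named, and all elements of genes with up to 4; for Nlrc5 all were named. Sequences were chosen for the highest and lowest members and for motif matches at promoters of the main genes.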

Additional observations from a re-analysis of the deposited data

How the results depend on the processing

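The number of members, the share higher, the median and the shares at promoters and at distal sites were recomputed under 9 alternatives, 2 of them added after the data were seen (elements of at least 100 bp, and starts of polymorphic pseudogenes). Most members were higher under each, at promoters and at distal sites too. The share higher lay between 67.8% and 88.4%, and that at promoters between 63.6% and 83.3%. That at distal sites lay between 67.9% and 94.7%, and the median between 0.92 and 1.52. The 67.9% at distal sites (19 of 28) came with only the 5′ end of each gene as its TSS. It is below the 72.7% of all distal elements in the main setting. With q under 0.001, 43 members were left, and the shares rose to 88.4%, 83.3% at promoters and 94.7% at distal sites, with a median of 1.52; over all elements they were then 54.4%, 13.6% and 84.9%, and the median turned from -0.59 to 0.87. Limited to values of 1 or more in size on the log2 scale, the median was 1.46. Without chromosome 17, 16 members were left. No replicate could be left out and no paired analysis was possible because the table holds 1 combined value per element. Elements of 50 or 75 bp give the least sequence to place.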

Other observations

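The stretch of chromosome 17 from the first to the last member (33919426 to 37271200) held 130 elements, of which 82 are nearest to coding starts of other genes, including the one 28 bp from an H2-DMa transcript (0.86). Of these 82, 30 were higher (36.6%), with 12 of 52 at promoters (23.1%) and 18 of 30 at distal sites (60.0%), beside 16 of 24 promoter-proximal members of the same stretch (66.7%). In the authors' deposited table, the highest promoter elements among the other genes were those of Trim26 (3.21, q = 7.37e-16), Hspa1a (3.18) and Hspa1b (2.92), both genes of inducible HSP70 chaperones, Vars (2.67), a valyl-tRNA synthetase gene, and Zbtb12 (2.66). The Trim26 and Vars elements held an IRF match, and those of Hspa1a, Hspa1b and Zbtb12 held none. The lowest were at the olfactory receptor gene Olfr94 (-2.73) and at Ddr1 (-2.36), which encodes a collagen receptor. The highest of all 82 was distal, 21265 bp from Gm19684 (3.81).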
